A study of Mus musculus with 8 samples.

Results

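Tight junctions were examined through 33 mouse genes: 18 claudins, the 3 MARVEL-domain proteins occludin, tricellulin (Marveld2) and Marveld3, the adhesion molecules F11r and Cxadr, the cytoplasmic plaque proteins Tjp1, Tjp3, Cgn, Cgnl1, Magi1 and Magi3, and the polarity proteins Patj, Crb3, Pard3 and Pard6b. The genes came from a list of symbols drawn up with earlier results of these data known, and all 33 were found among the 32728 genes of the count table. RNA came from organoids called APS colon cancer organoids in the labels, from C57BL/6 mice; APS stands for the disruption of Apc, Trp53 and Smad4, and all 8 libraries shared it. The study compared a medium without EGF with one containing it, in 2 lines. The noEGF groups, CTO19 and apsMC706, had EGF withheld and were harvested at day 7. The EM groups, of the same lines, were harvested at day 3 in B27, noggin (an inhibitor of BMP ligands), galunisertib (an inhibitor of the TGF-beta receptor) and EGF. CTO19 is labelled male and apsMC706 female, so line and labelled sex cannot be told apart, nor can the medium and the day of harvest. Each group held 2 libraries. Nothing in the labels says that these came from separate cultures, so p-values within a line measure only the spread between libraries, which may be technical.

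Tight junctions are the seals near the apex of epithelial cells. Claudins span the membrane and polymerise into strands that close the space between neighbouring cells; some members form barriers and others form pores for ions or water. Occludin and its relatives join these strands, scaffolds such as ZO-1 (Tjp1) tie them to actin, and the Crumbs and Par polarity complexes help to set where the junction forms.

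The libraries held 35650262 to 38953838 counts. The 33 genes together took 0.264% to 0.270% of counts in CTO19 noEGF and 0.168% to 0.173% in CTO19 EM. In apsMC706 they took 0.245% to 0.248% in noEGF and 0.196% to 0.197% in EM. The share of mitochondrially encoded genes was 4.13% to 5.19% in noEGF and 2.94% to 3.68% in EM. All 6 cycling markers examined fell in noEGF in both lines, beside 33.3% of all genes in CTO19 and 33.1% in apsMC706. Their summed level was 1394 to 1497 CPM (counts scaled to library size with TMM factors) in CTO19 noEGF against 2223 to 2425 CPM in CTO19 EM. In apsMC706 it was 1346 to 1354 CPM in noEGF against 3326 to 3384 CPM in EM. The part of cycling or of mitochondrial RNA in the differences between media was not tested. Apc was present at 59.8 to 198 CPM, Trp53 at 13 to 33.3 CPM and Smad4 at 10.8 to 39.9 CPM, which says nothing of a small CRISPR lesion in their transcripts. The markers examined for the label are intestinal and do not single out colon, and they held in part for apsMC706 and less for CTO19. The general epithelial genes Epcam and Cdh1 were high in all groups, but Cdh17, an intestinal cadherin, averaged 5.73 CPM in CTO19 noEGF and 1.25 CPM in CTO19 EM, against 310.2 CPM in apsMC706 noEGF and 336 CPM in apsMC706 EM. Of 10 intestinal markers tested, 8 were lower in CTO19 in noEGF, beside 34.3% of all genes, and 7 in EM, beside 33.8% (edgeR, adjusted p under 0.05). The other way went 2 in each medium, the general epithelial keratins Krt8 (log2 fold change 1.24 in noEGF and 0.85 in EM) and Krt19 (0.83 and 0.22). The lower ones also included general epithelial genes: Epcam (-0.14 and -0.38), Cdh1 (-0.14 and -0.63) and, in noEGF only, Krt18 (-0.53). Cdx1 and Krt20 were at or near 0 in both lines, averaging at most 0.0937 CPM and 0.128 CPM in any group. The 16 markers of squamous epithelium summed to 10100 to 10620 CPM in CTO19 noEGF and 10060 to 10280 CPM in CTO19 EM, against 55.8 to 61.8 CPM in apsMC706 noEGF and 20.5 to 22.2 CPM in apsMC706 EM. In bulk RNA, fewer cells of a type and less RNA per cell cannot be told apart.

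The tight junction genes as a group stood higher without EGF. Of the 33 members, 26 had enough counts to be tested. Over both lines, 13 of these 26 (50%) were higher in noEGF than in EM, beside 25.5% of all 16719 genes tested, and 1 (3.85%) was lower, beside 23.3% of all genes (edgeR quasi-likelihood test, Benjamini-Hochberg adjusted p under 0.05). The higher genes were Cldn1, Cldn3, Cldn4, Cldn7, Cldn8, Cldn10, Cldn23, Tjp1, Cgn, F11r, Crb3, Cxadr and Magi1, and the lower one was Pard3. Of these, Cldn10 had enough counts for testing only through apsMC706 noEGF (12 and 15 counts), the group where it was high. Its call is therefore no support for a rise of the group, although it is counted here and in apsMC706 alone. Of the 16 squamous markers, 11 rose and 2 fell in CTO19, beside 34.7% and 33.3% of all genes. In apsMC706, where their summed level was low, 7 rose and 1 fell, beside 34.1% and 33.1%. Chosen after their values were seen, Krt1 averaged 796 ± 118 CPM and Krt10 98.1 ± 21.1 CPM in CTO19 noEGF, against 22.2 ± 1.21 CPM and 3.03 ± 0.682 CPM in CTO19 EM (SD, n = 2 each), whereas the basal keratin Krt5 averaged 2225 ± 212 CPM in CTO19 noEGF against 3791 ± 77.9 CPM in CTO19 EM. Their part in the responses of the tight junction genes was not tested. In CTO19 alone, 19 of 26 (73.1%) rose, beside 34.7% of all genes, and 4 (15.4%) fell, beside 33.3%. In apsMC706 alone, 13 (50%) rose, beside 34.1%, and 3 (11.5%) fell, beside 33.1%. Both noEGF libraries lay above both EM libraries in each line for 12 members (46.2%), beside 24% of all genes, and below them in each line for 2 (7.69%), Cgnl1 and Pard3, beside 24.4%. Leaving out the genes with 3 or fewer counts in a group, the median log2 fold change of the members was 0.47 over both lines (24 genes), against 0.03 for all genes. When the 2 libraries of each group were summed, so that the line was the unit of replication, edgeR called 0 of 26 members and 0 of all genes. At an unadjusted p under 0.05, 9 members were then higher. The share of all genes at that threshold was not taken, so this count cannot be set against it.

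**Figure D1:**
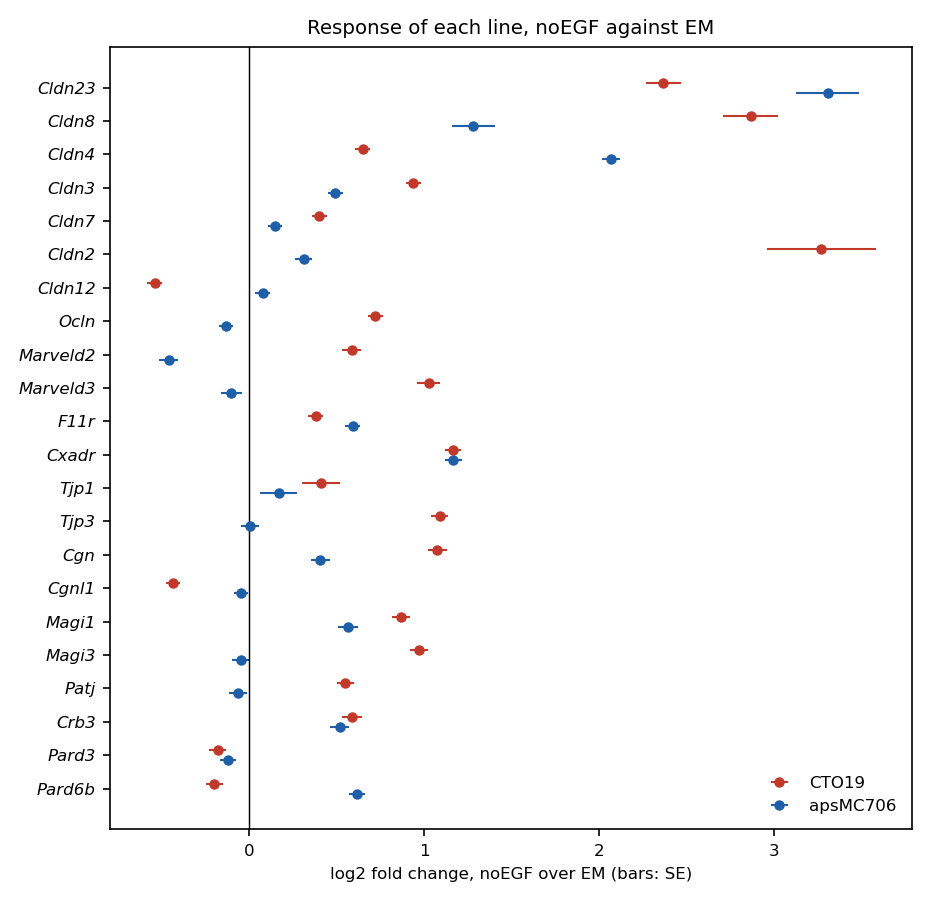
Log2 fold change of noEGF over EM (x axis, bars are standard errors) for 22 tight junction genes, with CTO19 above apsMC706 in each row. Most CTO19 points lie right of 0, Cxadr and Crb3 have nearly the same value in both lines, and Ocln, Marveld2, Magi3, Patj and Tjp3 lie right of 0 in CTO19 and at or left of 0 in apsMC706.

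Among the claudins, the barrier-forming Cldn4, which also binds Clostridium enterotoxin, rose in both lines. In CTO19 it had 299 and 282 CPM in noEGF, against 181 and 189.5 CPM in EM. In apsMC706 Cldn4 had 181 and 178 CPM in noEGF, against 44.4 and 41.3 CPM in EM. The groups did not overlap within either line, and apsMC706 without EGF reached only the level that CTO19 had with EGF. The log2 fold change was 0.65 ± 0.045 in CTO19 (SE, adjusted p = 1.06e-08) and 2.07 ± 0.0493 in apsMC706 (adjusted p = 1.94e-13). Over both lines it was 1.35 ± 0.279 (adjusted p = 0.00627).

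Cldn3, a sealing claudin and the other enterotoxin receptor, also rose in both lines. It had 139 and 137 CPM in CTO19 noEGF against 68.7 and 75.4 CPM in CTO19 EM, a log2 fold change of 0.94 ± 0.0455 (adjusted p = 2.56e-10). In apsMC706 Cldn3 had 185 and 186.5 CPM in noEGF against 133 and 131 CPM in EM, a log2 fold change of 0.49 ± 0.0438 (adjusted p = 1.15e-07). All 4 noEGF libraries were above all 4 EM libraries, by a narrow margin between CTO19 noEGF and apsMC706 EM. Cldn7, which sits along the lateral membrane and binds EpCAM, moved less. It had 124 and 126 CPM in CTO19 noEGF against 91.2 and 97.9 CPM in CTO19 EM (log2 fold change 0.40 ± 0.0429, adjusted p = 1.01e-06). In apsMC706 Cldn7 had 232 and 239.9 CPM in noEGF against 212 and 213.5 CPM in EM (0.15 ± 0.0412, adjusted p = 0.00551). The apsMC706 difference did not pass the threshold without apsMC706 EM library 1 (0.13) or without apsMC706 noEGF library 2 (0.11).

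The steepest rises over both lines, leaving aside the scarce Cldn10, were those of Cldn23 (2.73 ± 0.195, adjusted p = 0.000106) and Cldn8 (2.04 ± 0.325, adjusted p = 0.00211). Cldn23, a claudin of the surface epithelium of the colon, had 16.5 and 17.2 CPM in CTO19 noEGF against 3.30 and 3.23 CPM in CTO19 EM. In apsMC706 Cldn23 had 4.09 and 3.94 CPM in noEGF against 0.397 and 0.408 CPM in EM, where the 2 libraries held 15 counts each. The groups were far apart within each line, with log2 fold changes of 2.37 ± 0.1 in CTO19 (adjusted p = 6.89e-11) and 3.31 ± 0.179 in apsMC706 (adjusted p = 4.43e-10). Cldn8, a barrier to cations in the distal colon and the kidney, had 23.8 and 31.9 CPM in CTO19 noEGF against 4.11 and 3.54 CPM in CTO19 EM. In apsMC706 Cldn8 had 38.5 and 37.7 CPM in noEGF against 15.7 and 15.7 CPM in EM. Its rise was larger in CTO19 (2.87 ± 0.157, adjusted p = 3.53e-07) than in apsMC706 (1.28 ± 0.122, adjusted p = 1.42e-05), although the 2 CTO19 noEGF libraries differed by more than those of any other group.

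A further pair of claudins was measured almost entirely in 1 line each. Cldn1, without which mice lack the epidermal water barrier, had 35.4 and 34.8 CPM in CTO19 noEGF against 12.5 and 11.6 CPM in CTO19 EM, and rose there by a log2 fold change of 1.54 ± 0.0814 (adjusted p = 6.34e-10). In apsMC706 Cldn1 had 1 count over both noEGF libraries and 1 count over both EM libraries, so the call over both lines rested on CTO19. The count ratio of CTO19 over apsMC706 was 2610 in noEGF (95% exact interval 469 to 103000) and 899 in EM (161 to 35500); these intervals cover counting error only. Cldn2, a pore for cations and water found in intestinal crypts, showed the reverse. It had 1.10 and 1.42 CPM in CTO19 noEGF and 0.145 and 0.112 CPM in CTO19 EM, against 170 and 184 CPM in apsMC706 noEGF and 144 and 140.3 CPM in apsMC706 EM. No CTO19 library came near an apsMC706 library. The count ratio of apsMC706 over CTO19 was 140 in noEGF (115 to 172) and 1110 in EM (585 to 2430). Cldn2 lies on the X chromosome, so the labelled sex and the line cannot be told apart in this difference. Within each line Cldn2 was higher in noEGF, by 3.27 ± 0.311 in CTO19 (adjusted p = 3e-07), where the EM libraries held 9 counts together, and by 0.31 ± 0.048 in apsMC706 (adjusted p = 3.72e-05). Over both lines the difference of 0.84 ± 0.397 did not pass the test (adjusted p = 0.119), whereas the DESeq2 Wald test gave 1.57 and passed.

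Cldn12, a claudin linked to calcium uptake in mouse intestine, fell in CTO19. It had 35.5 and 34.4 CPM in CTO19 noEGF against 51.3 and 50.5 CPM in CTO19 EM, a fall by 0.54 on the log2 scale (SE 0.0451, adjusted p = 7.46e-08). In apsMC706 Cldn12 had 64.6 and 64.8 CPM in noEGF against 61.6 and 61.0 CPM in EM (0.08 ± 0.0425, adjusted p = 0.124); this passed the threshold without CTO19 noEGF library 1 or 2 (0.16 in both cases) and with DESeq2 size factors (0.13). The pore-forming Cldn10 was scarcely present: it had 0 and 2 counts in CTO19 noEGF and 0 in both CTO19 EM libraries, and 12 and 15 counts in apsMC706 noEGF against 2 and 0 in apsMC706 EM. The apsMC706 count ratio of noEGF over EM was 13.5 (95% exact interval 3.39 to 117), and its calls in apsMC706 and over both lines rested on these counts. Cldn15, a cation pore of the small intestine, and Cldn18, the claudin of stomach and lung, stayed below 0.6 CPM in all libraries and passed no test of the medium. Cldn18 had enough counts for testing only through apsMC706 noEGF (13 and 12 counts), the group where it was high. Its passes under the alternatives given next are therefore no support for a rise. In apsMC706, Cldn18 (1.17 ± 0.501, adjusted p = 0.0522) did pass with DESeq2 size factors (1.22), with the 4 apsMC706 libraries alone (1.17), and without CTO19 noEGF library 1 or 2 (1.25 in both cases). Over both lines it passed without CTO19 noEGF library 2 (1.16).

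The remaining 7 claudins were too low to test. Cldn5 of endothelium and Cldn16 of the kidney had 0 counts in all 8 libraries, and a count of 0 allows up to 3 counts, 0.0745 to 0.0868 CPM per library. Cldn9 had 1 to 10 counts per library, Cldn14 up to 6, Cldn11 up to 4, and Cldn6 and Cldn19 up to 3. Of the 8 endothelial markers, Kdr was at 0 in 3 of the 4 groups and Cdh5 averaged at most 0.470 CPM in any group. Their summed level, at most 28.8 CPM, was mostly Vwf, with 27.5 CPM in apsMC706 noEGF, and Flt1, with 18 CPM in CTO19 EM.

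**Figure D2:**
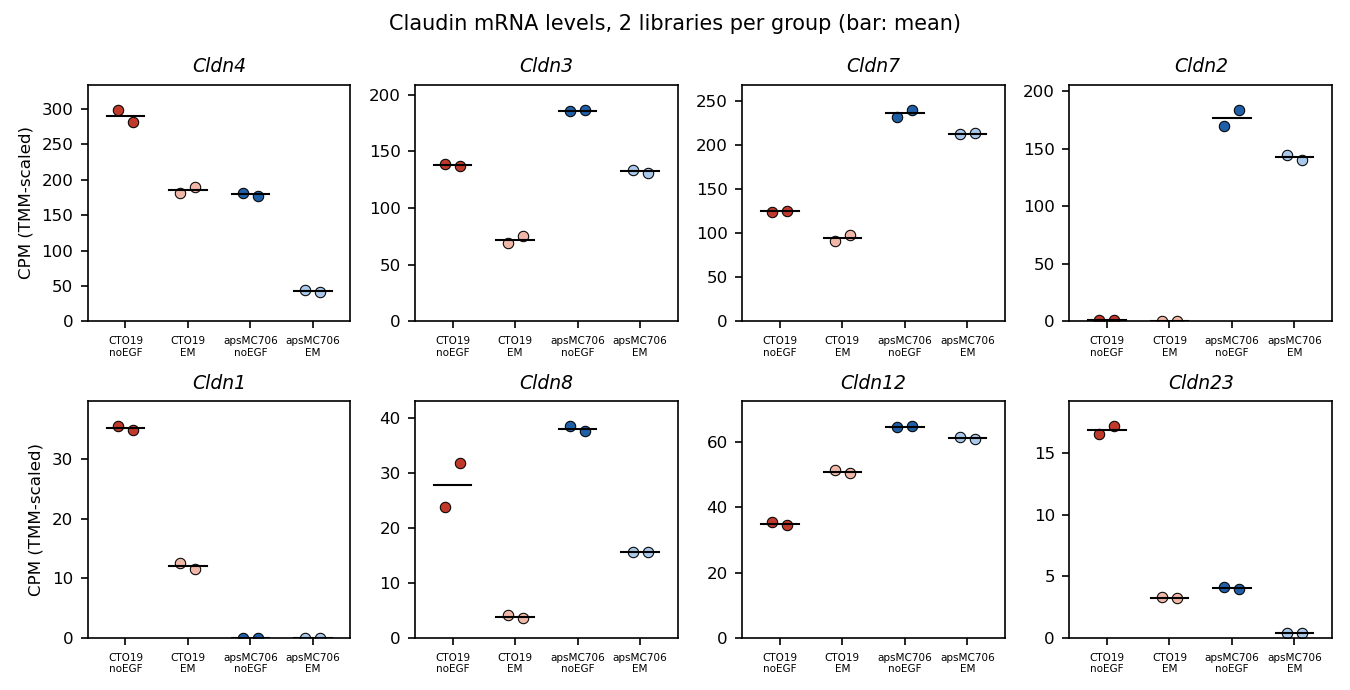
Level of 8 claudins (y axis, CPM with TMM scaling, linear from 0) in the 2 libraries of CTO19 noEGF, CTO19 EM, apsMC706 noEGF and apsMC706 EM (x axis); points are libraries and bars are means. Cldn1 is at the axis in apsMC706 and Cldn2 in CTO19, and Cldn4, Cldn8 and Cldn23 stand well above their EM level in noEGF.

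Levels per kilobase of exon, which allow genes to be compared, gave each line its own claudin make-up; without the length, shares move. In CTO19 noEGF the order was Cldn4 (160 ± 6.74 CPM per kb, SD, n = 2), Cldn3 (109.7 ± 0.785) and Cldn7 (64.1 ± 0.586), with Cldn8, Cldn23, Cldn12 and Cldn1 between 7.25 and 11.8 CPM per kb. CTO19 EM kept Cldn4, Cldn3 and Cldn7 on top in that order, and Cldn23 and Cldn8 there (1.77 ± 0.0264 and 1.62 ± 0.171) did not differ beyond their spread. In apsMC706 noEGF the order was Cldn3 (148 ± 0.643), Cldn7 (121 ± 2.98), Cldn4 (98.8 ± 1.5) and Cldn2 (53.2 ± 2.9). In apsMC706 EM it was Cldn7 (109 ± 0.376), Cldn3 (105 ± 1.23), Cldn2 (42.8 ± 0.882) and Cldn4 (23.6 ± 1.22). As a share of the summed claudin level per kb, Cldn4 made up 43.1% ± 1.29 in CTO19 noEGF and 45.1% ± 0.325 in CTO19 EM (SD, n = 2 each). In apsMC706 its share was 21.7% ± 0.559 in noEGF and 7.80% ± 0.323 in EM. Cldn7 had a lower share without EGF in both lines, 17.3% ± 0.368 in CTO19 noEGF against 21.5% ± 0.219 in CTO19 EM, and 26.6% ± 0.375 in apsMC706 noEGF against 36.2% ± 0.495 in apsMC706 EM. Its own level per kb was nevertheless higher in noEGF in both lines. By CPM without the length, Cldn2 would hold 23.4% rather than 14.2% in apsMC706 EM, Cldn1 5.24% rather than 1.96% in CTO19 noEGF, and Cldn7 would stand above Cldn3 in CTO19 EM and in apsMC706 noEGF. Per kb, Cldn2 held 0.102% ± 0.0192 in CTO19 noEGF and 0.0172% ± 0.00372 in CTO19 EM, against 11.7% ± 0.516 in apsMC706 noEGF and 14.2% ± 0.141 in apsMC706 EM. The summed claudin level was 374 and 368 CPM per kb in CTO19 noEGF against 219.9 and 233 in CTO19 EM, and 451.5 and 458 in apsMC706 noEGF against 304.5 and 300.1 in apsMC706 EM, so it was higher in noEGF in both lines and higher in apsMC706 than in CTO19 in both media.

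**Figure D3:**
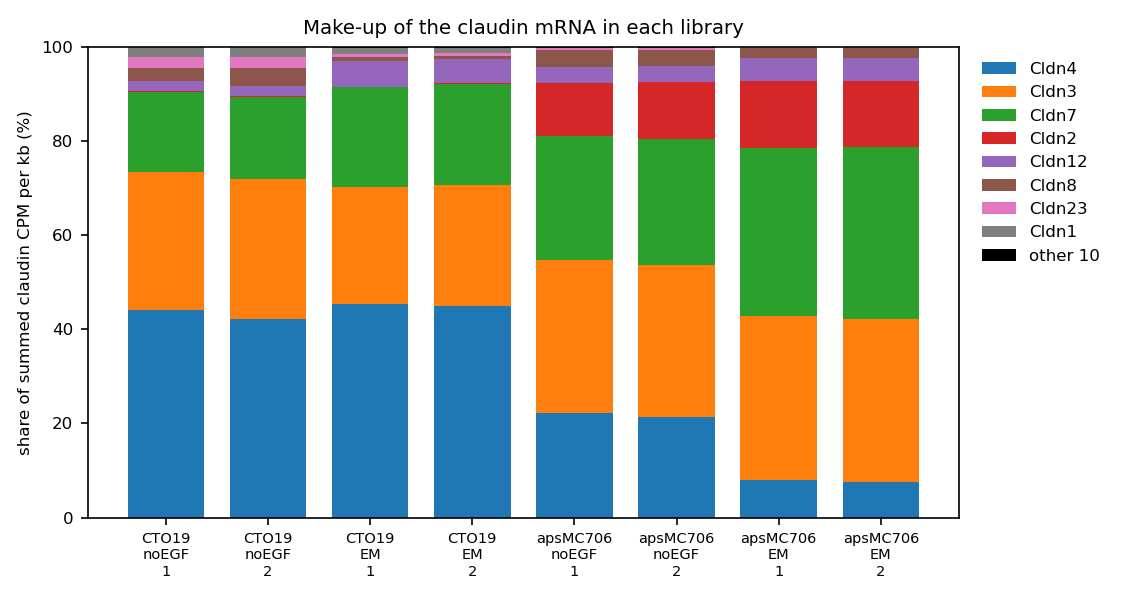
Share of each claudin in the summed claudin CPM per kb (y axis, percent) in each of the 8 libraries (x axis), with CTO19 left of apsMC706 and noEGF left of EM. Cldn4 fills 43.1% of the CTO19 noEGF bars and 7.80% of the apsMC706 EM bars on average, and Cldn2 is visible only in apsMC706.

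Promoters are shown for the 2 claudins that differed most by line, Cldn1 and Cldn2, and for the neighbouring pair Cldn4 and Cldn3, which lie 39280 bp apart on chromosome 5 and rose together. Each sequence runs from 250 bases before to 50 after the RefSeq start (GRCm38.p6), 5′ to 3′ on the gene's strand; capitals mark matches to the motifs below.
Cldn4 (chr5:134946885-134947184, minus strand): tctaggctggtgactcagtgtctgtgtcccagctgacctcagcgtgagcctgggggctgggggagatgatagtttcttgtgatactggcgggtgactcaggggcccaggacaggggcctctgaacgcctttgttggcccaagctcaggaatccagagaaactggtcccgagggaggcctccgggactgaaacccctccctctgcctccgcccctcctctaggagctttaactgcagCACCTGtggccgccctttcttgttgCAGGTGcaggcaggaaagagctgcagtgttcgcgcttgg
Cldn3 (chr5:134985964-134986263, plus strand): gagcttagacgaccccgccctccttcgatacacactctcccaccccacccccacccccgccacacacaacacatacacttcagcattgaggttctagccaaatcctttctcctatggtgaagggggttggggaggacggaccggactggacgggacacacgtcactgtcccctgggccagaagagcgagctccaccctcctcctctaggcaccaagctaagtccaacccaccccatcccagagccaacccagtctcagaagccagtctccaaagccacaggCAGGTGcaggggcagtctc
Cldn1 (chr16:26371790-26372089, minus strand): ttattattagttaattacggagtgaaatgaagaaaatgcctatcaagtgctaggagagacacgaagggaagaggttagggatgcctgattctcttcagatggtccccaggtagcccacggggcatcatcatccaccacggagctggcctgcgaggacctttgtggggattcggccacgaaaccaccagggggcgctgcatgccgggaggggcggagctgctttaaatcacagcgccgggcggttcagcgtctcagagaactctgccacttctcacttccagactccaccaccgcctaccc
Cldn2 (chrX:139800558-139800857, plus strand): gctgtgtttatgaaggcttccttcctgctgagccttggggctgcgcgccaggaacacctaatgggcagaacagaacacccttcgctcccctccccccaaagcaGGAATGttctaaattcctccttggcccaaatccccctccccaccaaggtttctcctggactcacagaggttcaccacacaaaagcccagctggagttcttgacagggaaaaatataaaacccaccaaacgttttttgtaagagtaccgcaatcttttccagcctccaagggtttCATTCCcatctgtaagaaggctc
Searched on both strands were the E-box CAGGTG (reverse CACCTG), a TEAD motif GGAATG (reverse CATTCC), the GRHL motif AACCGGTT and a CDX motif TTTATGG (reverse CCATAAA). Cldn4 has 2 E-boxes whose first bases lie at -14 and 12, counted from the start as base 1, and Cldn3 has 1 at 32. Cldn2 has TEAD matches at -147 and 28, and Cldn1 has no match to any of the 4. Of 44 promoter windows found for 28 of the 33 genes, 18 (40.9%) held the E-box, against 6640 of 32851 RefSeq promoters (20.2%); windows of 1 gene can overlap. The 14 genes concerned were Cldn3, Cldn4, Cldn6, Cldn7, Cldn14, Crb3, F11r, Magi1, Marveld2, Ocln, Pard3, Pard6b, Patj and Tjp3. No window was found for Cldn8, Cldn9, Cldn23, Marveld3 and Cxadr. Member windows and all promoters were not matched for base composition, and its part in the E-box shares was not tested. The TEAD motif was in 15.9% of member windows and 14.7% of all, and no member window held the GRHL motif (0.15% of all) or the CDX motif (2.75% of all). GC content was 61% for Cldn4, 60.7% for Cldn3, 56% for Cldn1 and 51.3% for Cldn2, against a median of 52.7% for all promoters. A match describes the letters and shows no binding.

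The MARVEL-domain genes separated the lines. Ocln, the strand protein occludin, had 59.3 and 58.3 CPM in CTO19 noEGF against 35.4 and 36 CPM in CTO19 EM, a log2 fold change of 0.72 ± 0.0442 (adjusted p = 2.92e-09). In apsMC706 Ocln had 82.9 and 83.4 CPM in noEGF against 92.0 and 90.1 CPM in EM, a fall by 0.13 on the log2 scale (SE 0.0407, adjusted p = 0.0104). That small fall did not pass with DESeq2 size factors (-0.07), nor without apsMC706 EM library 1 or apsMC706 noEGF library 1 (-0.13 each), nor without CTO19 noEGF library 1 or 2 (-0.04 each). Marveld2, which seals the corners where 3 cells meet, moved in opposite directions. It had 33.3 and 34.7 CPM in CTO19 noEGF against 22.2 and 23.1 CPM in CTO19 EM (0.58 ± 0.0548, adjusted p = 2.55e-07). In apsMC706 Marveld2 had 24.6 and 24.9 CPM in noEGF against 33.6 and 34.5 CPM in EM (-0.46 ± 0.0541, adjusted p = 2.35e-06). Marveld3, the third of these proteins, had 31.3 and 34.2 CPM in CTO19 noEGF against 15.9 and 16.3 CPM in CTO19 EM (1.02 ± 0.0635, adjusted p = 3.21e-09). In apsMC706 Marveld3 had 29.3 and 28.5 CPM in noEGF against 31.8 and 30.2 CPM in EM, with no change past the threshold (-0.10 ± 0.0595, adjusted p = 0.149).

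Both adhesion molecules rose in both lines. Cxadr, the coxsackievirus and adenovirus receptor of the junction, had 247 and 268 CPM in CTO19 noEGF against 115 and 114.5 CPM in CTO19 EM. In apsMC706 Cxadr had 84.7 and 81.0 CPM in noEGF against 36.9 and 36.8 CPM in EM. The lines began at different levels and moved by nearly the same factor, 1.16 ± 0.0448 in CTO19 (adjusted p = 2.71e-11) and 1.17 ± 0.0491 in apsMC706 (adjusted p = 3.17e-11) on the log2 scale; the difference of the responses was 0.00 ± 0.0648. Of the 50-base stretches of the Cxadr transcripts, 6.78% are shared with other genes, most often Btg3, which overlaps it on the opposite strand. The library kit does not mark strand, so reads from that overlap could be from either gene. F11r, the junctional adhesion molecule JAM-A, had 189 and 185 CPM in CTO19 noEGF against 139 and 148 CPM in CTO19 EM (0.38 ± 0.0415, adjusted p = 1.25e-06). In apsMC706 F11r had 195 and 198 CPM in noEGF against 129 and 132 CPM in EM (0.59 ± 0.0416, adjusted p = 8.11e-09).

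Among the plaque proteins, the scaffold Tjp1 moved little. It had 433 and 375.5 CPM in CTO19 noEGF against 334 and 274 CPM in CTO19 EM. In apsMC706 Tjp1 had 457.5 and 452 CPM in noEGF against 404 and 405 CPM in EM. The media did not overlap in either line, but the libraries of a CTO19 group lay far apart, and the log2 fold changes were 0.41 ± 0.107 in CTO19 (adjusted p = 0.0162) and 0.17 ± 0.107 in apsMC706 (adjusted p = 0.214). The apsMC706 difference did pass with the 4 apsMC706 libraries alone (0.17) and with the DESeq2 Wald test (0.23). Over both lines 0.29 ± 0.0952 passed narrowly (adjusted p = 0.0388). That call was lost without any 1 of 6 libraries, both EM and both noEGF libraries of apsMC706 and both EM libraries of CTO19, at values of 0.21 to 0.32, and the CTO19 call was lost without CTO19 noEGF library 1 (0.31). Tjp3, which encodes ZO-3, rose in CTO19, with 113 and 122 CPM in CTO19 noEGF against 53.6 and 56.6 CPM in CTO19 EM (1.09 ± 0.0495, adjusted p = 1.42e-10). In apsMC706 Tjp3 had 55.9 and 58.5 CPM in noEGF against 57.1 and 57.0 CPM in EM (0.00 ± 0.0507, adjusted p = 0.981), though it passed under the stricter filter (0.12). Over both lines it missed the threshold (0.55 ± 0.211, adjusted p = 0.0659) but passed with DESeq2 size factors (0.58) and without apsMC706 noEGF library 1 (0.69).

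Cgn, cingulin, which links the junction to actomyosin, had 238.5 and 213 CPM in CTO19 noEGF against 108.5 and 106 CPM in CTO19 EM (1.08 ± 0.0525, adjusted p = 4e-10). In apsMC706 Cgn had 114 and 114 CPM in noEGF against 89.2 and 83.2 CPM in EM (0.41 ± 0.0534, adjusted p = 9.25e-06). All noEGF libraries lay above all EM libraries. Of the 50-base stretches of its transcripts, 17.2% also occur in transcripts of other genes, most often BC021767. Part of its reads could therefore not be assigned by sequence alone. Its paralogue Cgnl1, paracingulin, went the other way in CTO19, with 155 and 152 CPM in noEGF against 214 and 201 CPM in EM (-0.44 ± 0.0408, adjusted p = 2.53e-07). In apsMC706 Cgnl1 had 144 and 141.5 CPM in noEGF against 148 and 146 CPM in EM (-0.05 ± 0.0411, adjusted p = 0.336). The scaffold Magi1 had 70.3 and 67.1 CPM in CTO19 noEGF against 38.3 and 37.0 CPM in CTO19 EM (0.87 ± 0.0523, adjusted p = 2.45e-09). In apsMC706 Magi1 had 36.1 and 33.2 CPM in noEGF against 23.4 and 23.5 CPM in EM (0.56 ± 0.0572, adjusted p = 4.86e-07). Its relative Magi3 rose in CTO19, with 111 and 105 CPM in noEGF against 56.3 and 53.9 CPM in EM (0.97 ± 0.0509, adjusted p = 5.92e-10). In apsMC706 Magi3 had 79.6 and 73.0 CPM in noEGF against 77.7 and 80.0 CPM in EM, and the groups overlapped (-0.05 ± 0.0503, adjusted p = 0.421).

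The polarity genes gave smaller and mixed differences. Crb3, the epithelial Crumbs protein that marks the apical side, rose alike in both lines. It had 39.7 and 41.0 CPM in CTO19 noEGF against 26.1 and 27.6 CPM in CTO19 EM (0.59 ± 0.0575, adjusted p = 3.92e-07). In apsMC706 Crb3 had 39.1 and 40.8 CPM in noEGF against 26.8 and 29.1 CPM in EM (0.52 ± 0.0571, adjusted p = 1.24e-06). Patj, a scaffold of the Crumbs complex, rose in CTO19, with 138 and 128 CPM in noEGF against 93.5 and 88.7 CPM in EM (0.55 ± 0.0493, adjusted p = 1.58e-07). In apsMC706 Patj had 71.3 and 66.8 CPM in noEGF against 73.0 and 71.2 CPM in EM, overlapping narrowly (-0.06 ± 0.051, adjusted p = 0.29). Pard6b, an adaptor of atypical protein kinase C, had 41.1 and 40.5 CPM in CTO19 noEGF against 45.5 and 48.1 CPM in CTO19 EM (-0.20 ± 0.0483, adjusted p = 0.00211). In apsMC706 Pard6b had 74.4 and 75.3 CPM in noEGF against 47.7 and 49.99 CPM in EM (0.62 ± 0.0462, adjusted p = 1.72e-08), so the lines moved in opposite directions. Pard3, the scaffold of the Par complex, had 61.1 and 67.0 CPM in CTO19 noEGF against 73.4 and 71.8 CPM in CTO19 EM (-0.18 ± 0.0478, adjusted p = 0.00384). In apsMC706 Pard3 had 85.9 and 86.2 CPM in noEGF against 94.1 and 92.9 CPM in EM (-0.12 ± 0.0465, adjusted p = 0.034). Over both lines it fell by 0.15 on the log2 scale (SE 0.0508, adjusted p = 0.0423), and that call was lost without any 1 of the 8 libraries (-0.16 to -0.06) and with DESeq2 size factors (-0.12). The apsMC706 call was lost without any of the 4 apsMC706 libraries or either CTO19 noEGF library (-0.13 to -0.03), and its sign turned under the stricter filter (0.0017). The CTO19 call was lost without CTO19 noEGF library 1 (-0.11).

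**Figure D4:**
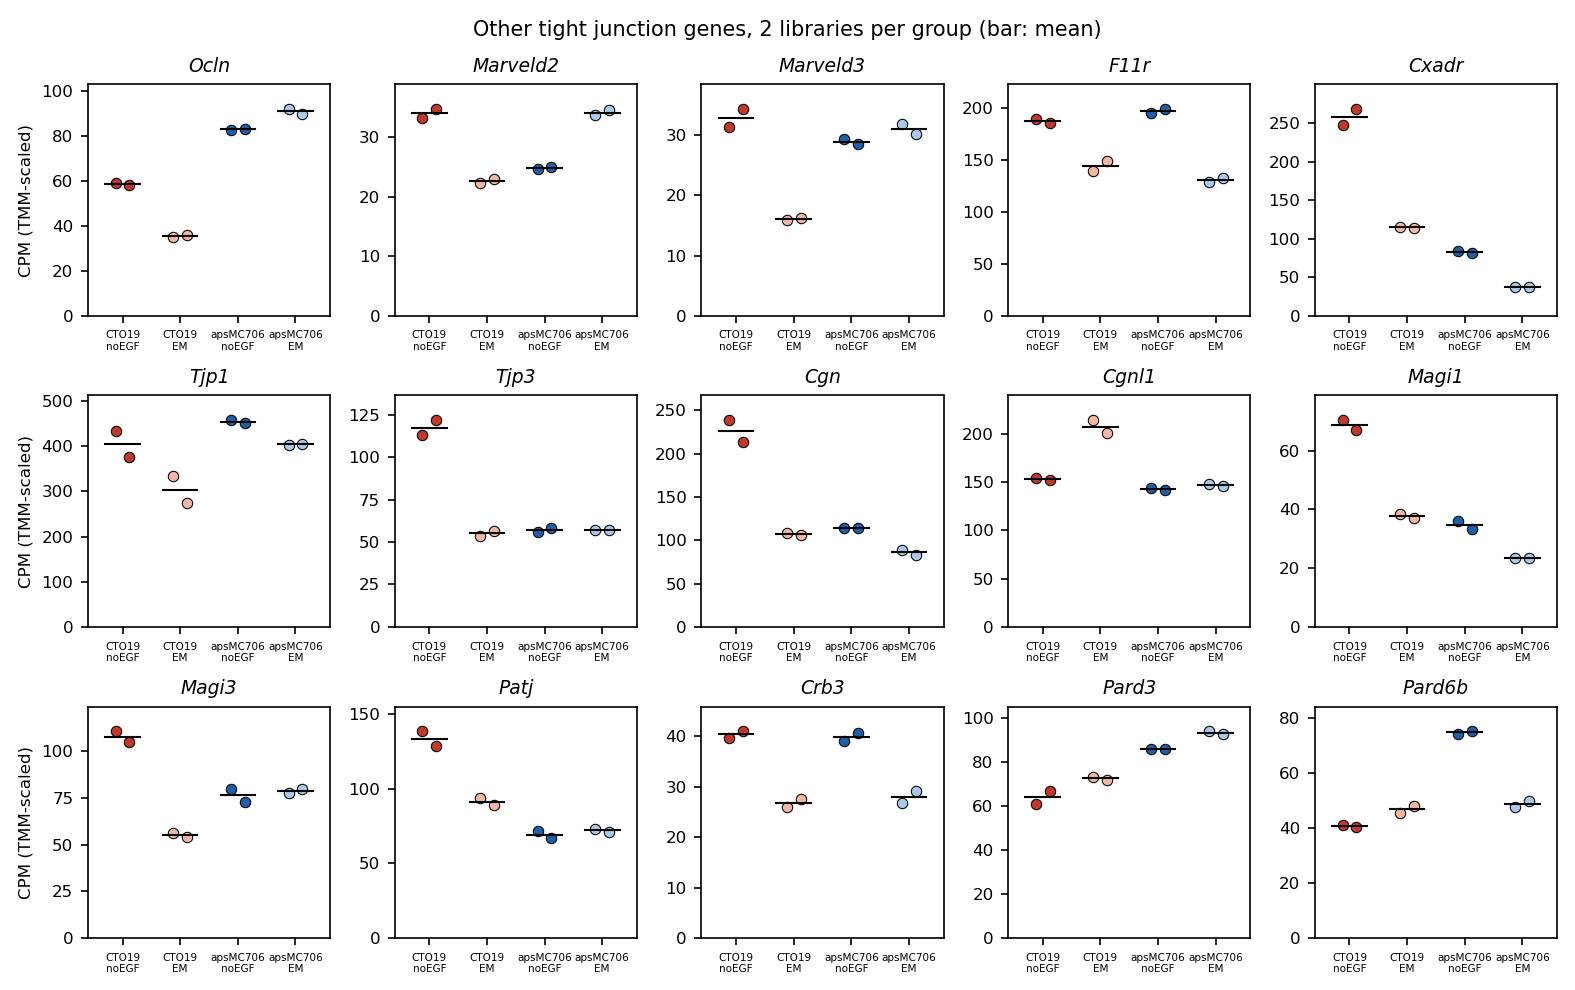
Level of 15 other tight junction genes (y axis, CPM with TMM scaling, linear from 0) in CTO19 noEGF, CTO19 EM, apsMC706 noEGF and apsMC706 EM (x axis); points are libraries and bars are means of 2. Cxadr, Crb3 and F11r are raised in noEGF in both lines, and Marveld2 and Pard6b move in opposite directions.

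The responses of the lines differed by their own test for 18 of the 26 members tested. In 12 (46.2%), beside 30.4% of all genes, the CTO19 response was the more positive one, and in 6 (23.1%), beside 25.6%, the apsMC706 response was. These comparisons share no libraries, since each line had its own EM group. The more positive responses in CTO19 were those of Cldn2, Cldn3, Cldn7, Cldn8, Ocln, Marveld2, Marveld3, Tjp3, Cgn, Patj, Magi1 and Magi3. The largest of them was Cldn2, 2.96 ± 0.323 log2 units above apsMC706 (adjusted p = 1.99e-06), followed by Cldn8 with 1.58 ± 0.207 (adjusted p = 0.00018). The strand and plaque genes Marveld3, Tjp3, Marveld2 and Magi3 differed by 1.02 to 1.13 log2 units. The more positive responses in apsMC706 were those of Cldn4, Cldn12, Cldn23, Cgnl1, F11r and Pard6b, with Cldn4 furthest apart (-1.42 ± 0.0662, adjusted p = 3.97e-10). The calls for F11r (-0.21) and Magi1 (0.30) were lost without apsMC706 EM library 1 (-0.18) and without CTO19 noEGF library 1 (0.19), in that order. Tjp1 and Pard3, which had not passed, did so without CTO19 EM library 1 (0.39) and without CTO19 noEGF library 2 (-0.21), in that order.

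CTO19 and apsMC706 also differed in their tight junction levels within each medium. In noEGF, 12 of 26 members (46.2%) were higher in CTO19, beside 45.7% of all genes, and 10 (38.5%) were lower, beside 34.3%. In EM, 10 (38.5%) were higher in CTO19, beside 37.5%, and 11 (42.3%) were lower, beside 33.8%. The shares higher in CTO19 lay near those of all genes. The shares lower lay above them by few genes of 26, so neither is read as particular to the members. Cldn10 and Cldn18, both counted as lower in noEGF, had enough counts for testing only through apsMC706 noEGF, the group where they were high. Cldn15, counted as higher in EM, had enough only through CTO19 EM (20 and 16 counts), the group where it was high. The calls on Cldn10, Cldn15 and Cldn18 are therefore no support for a difference between the lines. Besides Cldn1, Cldn23 and Cxadr were higher in CTO19, by 2.07 ± 0.0962 and 1.64 ± 0.0457 log2 units in noEGF and by 3.01 ± 0.187 and 1.64 ± 0.0488 in EM. Cldn4 was 0.69 ± 0.045 higher in CTO19 in noEGF and 2.11 ± 0.0493 higher in EM. Besides Cldn2, Cldn7 was lower in CTO19 by 0.92 ± 0.042 in noEGF and by 1.17 ± 0.0427 in EM. Some genes changed sides with the medium: Marveld2 was higher in CTO19 in noEGF (0.46 ± 0.0539) and lower in EM (-0.59 ± 0.055), and Magi3 did likewise (0.50 ± 0.0496 and -0.52 ± 0.0515). Without EGF, Marveld3 (0.18) and Cgnl1 (0.10) were higher in CTO19 by small amounts that several alternatives did not keep. Marveld3 lost its call without CTO19 noEGF library 2 (0.03) or apsMC706 noEGF library 2 (0.17), and Cgnl1 without apsMC706 EM library 2, either apsMC706 noEGF library or either CTO19 noEGF library (0.0032 to 0.12). In EM, Cldn15 (1.43) lost its call without apsMC706 EM library 2 or CTO19 EM library 1 (1.24 to 1.26), and F11r (0.14) without apsMC706 EM library 1 (0.11) or CTO19 EM library 2 (0.087). In noEGF, F11r (-0.07) did not pass, but it did without any 1 of the 4 CTO19 libraries (-0.17 to -0.07) and with DESeq2 size factors (-0.13). The part of the squamous markers, which separate the lines as given above, in these differences was not tested.

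**Figure D5:**
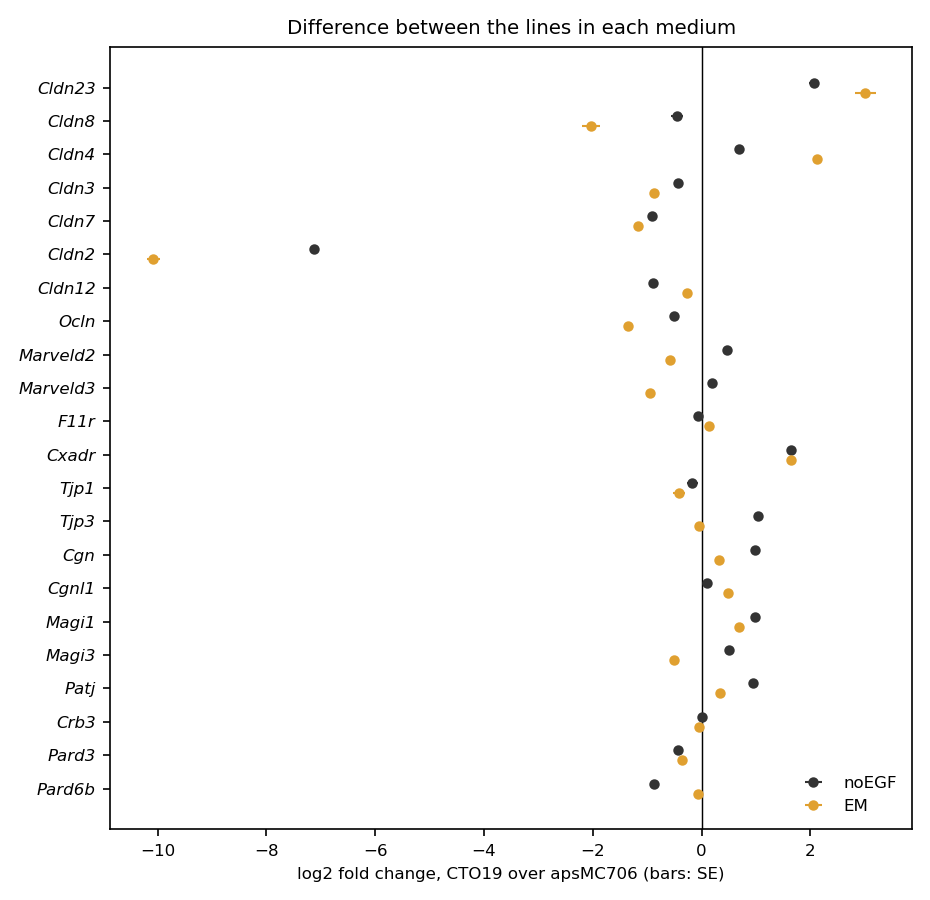
Log2 fold change of CTO19 over apsMC706 (x axis, bars are standard errors) for 22 tight junction genes, with noEGF above EM in each row. Cldn2 lies at -7.12 in noEGF and -10.08 in EM, Cldn23 and Cxadr lie right of 0 in both media, and Marveld2 and Magi3 change sides.

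Related gene lists are read against the same 25.5% higher and 23.3% lower over all genes. Of 6 claudin-binding proteins and genes of the matriptase protease pathway, 5 rose over both lines. Spint1, a matriptase inhibitor, averaged 154 ± 3.66 CPM in CTO19 noEGF against 65.5 ± 0.937 CPM in CTO19 EM, and 136 ± 2.19 CPM in apsMC706 noEGF against 75.8 ± 0.878 CPM in apsMC706 EM (SD, n = 2 each; both lines 1.04 ± 0.0851 SE, edgeR adjusted p = 0.000166). Spint2 (0.69) and Epcam (0.56), the membrane partner of Cldn7, also rose. Of 26 other tight junction genes tested, 10 rose over both lines and 1 fell. The kinase Wnk4 (1.42), the adhesion molecule Jam2 (1.71) and the angiomotin Amotl2 (0.73) were the risers of smallest p, and the junctional transcription factor Ybx3 (-0.60) was the one that fell. The Jam2 rise rested mainly on CTO19. In apsMC706 Jam2 had 14 counts in noEGF against 7 in EM and did not pass (0.97, edgeR adjusted p = 0.163). Of 16 polarity genes, 3 rose, with Prkcz, an atypical protein kinase C, at 0.83, Lin7b at 1.24 and Mpp5 at 0.22, and 2 fell, Cdc42 at -0.26 and Pard6g at -0.46. Lin7b was scarce, with 13 to 35 counts a group. Of 14 adherens junction genes, 4 rose, led by Nectin4 (1.68) and Nectin2 (0.79), and 2 fell, Nectin3 (-0.60) and Vcl (-0.25).

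Of 16 regulators of junction genes tested, 4 rose over both lines and 3 fell, beside the same shares of all genes as above. The epithelial transcription factor Elf3 averaged 113 ± 5.14 CPM in CTO19 noEGF against 61.2 ± 1.37 CPM in CTO19 EM, and 68.6 ± 0.727 CPM in apsMC706 noEGF against 57.3 ± 0.441 CPM in apsMC706 EM (SD, n = 2 each). Ovol1 (0.82) and Grhl3 (0.48), both epithelial factors, rose over both lines as well, but in apsMC706 alone neither passed (0.31, adjusted p = 0.129, and 0.14, adjusted p = 0.12). The 3 that fell were Snai2, Zeb1 and Zeb2, repressors of epithelial junction genes that bind E-boxes. Snai2 averaged 24.3 ± 2.69 CPM in CTO19 noEGF against 70.8 ± 1.74 CPM in CTO19 EM (log2 fold change -1.54 ± 0.0705, edgeR adjusted p = 1.48e-10), and its 4 apsMC706 libraries held 1 count in noEGF and 3 in EM. Zeb2 averaged 3.05 ± 0.592 CPM in CTO19 noEGF against 7.38 ± 0.740 CPM in CTO19 EM, with 2 counts in apsMC706 noEGF and 3 in apsMC706 EM. Zeb1 averaged 0.557 ± 0.0496 CPM in CTO19 noEGF against 1.38 ± 0.0313 CPM in CTO19 EM, with 8 counts in apsMC706 noEGF and 14 in apsMC706 EM. The falls were thus measured in CTO19; in apsMC706 the edgeR adjusted p was 0.379 for Snai2, 0.25 for Zeb1 and 0.738 for Zeb2. Of the 16 regulators, 13 were higher and 3 lower in CTO19 in noEGF, beside 45.7% and 34.3% of all genes. In EM, 9 were higher and 4 lower, beside 37.5% and 33.8%. Named after their values were seen, the intestinal factors Hnf4a and Cdx2 were, like Cldn2, lower in CTO19 in both media. By medium the match was partial. Hnf4a rose in CTO19 (3.38), as Cldn2 did, but fell in apsMC706 (-0.40), and Cdx2 fell in CTO19 (-0.89). Hnf4a averaged 0.767 ± 0.286 CPM in CTO19 noEGF and 0.0706 ± 0.059 CPM in CTO19 EM. In apsMC706 Hnf4a averaged 53.7 ± 2.47 CPM in noEGF and 70.8 ± 1.13 CPM in EM. Cdx2 averaged 1.10 ± 0.340 CPM in CTO19 noEGF and 2.05 ± 0.360 CPM in CTO19 EM, against 10.1 ± 0.189 CPM in apsMC706 noEGF and 9.31 ± 0.115 CPM in apsMC706 EM. Whether any of these factors acts on a member gene was not tested.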

How the data were processed

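Poly(A) RNA of 8 libraries was sequenced, in 4 groups of 2 (line by medium). Per the submitters' processing notes, reads were aligned with STAR 2.7.0a to mm10; annotation, counting program and strand setting were not given in the sources used here. Whole-number counts per Ensembl gene were deposited by the authors, and per the labels the libraries had 8 amplification cycles and a kit that, by its name, does not mark strand. Symbols, exon lengths and overlaps came from GENCODE M21 (32680 of 32728 genes matched).

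Counts were tested in R 4.3.3 with edgeR 4.0.16 quasi-likelihood F-tests (robust, TMM factors, filterByExpr with the 4 groups, which left 16719 genes and 99.971% of counts), two-sided, with Benjamini-Hochberg adjustment over all genes tested and a threshold of 0.05. The comparison over both lines modelled line and medium (5 degrees of freedom; coefficient of variation 16.9%, which takes in how far the responses of the lines differ). The others used the 4 group means with a shared spread (4 degrees of freedom, 4.27%). Levels are CPM with TMM factors, per kb of union exon length where genes are compared. Intervals of count ratios are exact binomial ones, and these and the floors cover counting error only. Alternatives were DESeq2 1.42.0 size factors and its Wald test, no filter, a stricter filter (at least 1 CPM in 4 or more libraries), the replicate number as a block, each library left out, the 4 libraries of a comparison alone, no line term, and summed libraries. Replicates of a group differed by more than counting noise, so none was a duplicate. Replicate numbers did not pair libraries (correlations of their deviations -0.00824 to 0.0485).

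Members and gene lists were chosen with earlier results of these data known. Members were described in full if they passed over both lines, if the lines' responses differed with a response of at least 1 log2 unit, or if they were among the 5 highest claudins of a group; Ocln, Marveld2, Magi3, Patj, Pard6b and Cgnl1 were added after their values were seen. From other lists, at most 3 genes per direction were named, by smallest p over both lines; others are marked. Claudin protein sequences were not analysed here.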

Additional observations from a re-analysis of the deposited data

Results flagged for a closer look

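For 18 members the response to the medium without EGF differed between CTO19 and apsMC706 by a test of the difference itself (edgeR quasi-likelihood test of the 2 responses, adjusted p under 0.05). Each value below is the CTO19 response minus the apsMC706 response in log2 units. Among claudins it was 2.96 for Cldn2, 1.58 for Cldn8, 0.45 for Cldn3 and 0.25 for Cldn7, against -0.94 for Cldn23, -0.62 for Cldn12 and -1.42 for Cldn4. For the strand-associated Ocln, Marveld2 and Marveld3 it was 0.85, 1.05 and 1.13. Of the plaque proteins, Tjp3 had 1.09, Magi3 had 1.02, Cgn had 0.67, Magi1 had 0.30 and Cgnl1 had -0.39. Patj had 0.61, Pard6b had -0.81 and F11r had -0.21. The Cldn2 value rests on 9 counts in the 2 CTO19 EM libraries.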

How the results depend on the processing

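Of 156 tests on members, 114 passed the threshold, and a further 13 passed under at least 1 alternative only. Many of all genes passed too: 25.5% to 45.7% were higher and 23.3% to 34.3% lower, depending on the comparison. Over both lines, the count of members lower in noEGF was 1 and became 0 with DESeq2 size factors, no filter, the stricter filter, the DESeq2 Wald test, the replicate block, no line term and summed libraries, and 0 without each library in turn (lowest 0, highest 0); at an unadjusted p under 0.05 it was 3 in edgeR and 1 in DESeq2. The share of all genes at the unadjusted threshold was not taken. The count of members higher was 13, and became 2 with no line term and 0 with summed libraries. In apsMC706, the count lower was 3 and became 1 with DESeq2 size factors, no filter, the stricter filter and the DESeq2 Wald test, and 1 to 3 without each library. Members below EM in both lines were 2, or 1 with DESeq2 size factors. Among tests that passed under at least 1 setting, the sign turned for Pard3 in apsMC706 under the stricter filter (0.0017). With that filter the median shift of all genes in apsMC706 was 0.12 log2 units, and with DESeq2 size factors it was 0.058. Without CTO19 noEGF library 1 or 2 it was 0.088 in both cases. The apsMC706 values of Cldn12, Cldn18, Ocln and Pard3 given above for these settings are to be read beside these shifts of all genes. The sign also turned for Tjp3 in apsMC706, at 0.00 with all libraries. Its value ranged from -0.0415 to 0.0911 without each library and passed at 0.12 under the stricter filter. Of the 29 tests that passed under no setting, 15 changed sign in at least 1 alternative. The cause of these shifts was not tested. The replicate block, for which no pairing was found, ended the Pard3 call over both lines (-0.15) and gained 2 for Tjp1, noEGF against EM in apsMC706 (0.17) and CTO19 against apsMC706 in noEGF (-0.17). Where a library was left out, the lone sample of its group was assumed to vary like the other groups. Calls on Cldn10, Cldn15 and Cldn18 rest on at most 36 counts a group.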
